A study of Rattus norvegicus with 22 samples.

Results

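Nonhomologous end joining rejoins the 2 ends of a broken chromosome with little or no matching sequence between them. The ends are held by the Ku ring of Xrcc6 (Ku70) and Xrcc5 (Ku80), which recruits the kinase Prkdc. Dclre1c, the nuclease Artemis, and Dntt, the polymerase terminal transferase, change the ends, and the ligase Lig4 seals them with its partner Xrcc4 and the related scaffold Nhej1 (XLF). Outside the germline the pathway is best known for joining the gene segments of antibodies and T cell receptors, where Dntt adds bases without a template. In the male germline it stands beside homologous recombination, the route that meiotic cells use for their programmed breaks, and haploid spermatids have no sister chromatid or homologue to copy from.

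The 8 genes of this core set were looked up by the rat RefSeq accession that each array probe carries. A probe was found for 7 of the 8, each with 1 probe, among 15154 genes that could be named on the array. Prkdc was not analysed here. RNA from male rat germ cells had been labelled with Cy3 and measured on 22 one-colour Agilent arrays. The rats had been gavaged with cyclophosphamide, an anticancer drug that alkylates and crosslinks DNA, at 6 mg/kg, or with saline, on 6 days a week for 4 weeks. Cells were separated by sedimentation under gravity (STA-PUT), and the rats' strain and age are not given in the sources used here. The 4 groups were pachytene spermatocytes, which are in meiotic prophase, of 5 saline and 5 cyclophosphamide rats, and round spermatids, the early haploid cells, of 6 saline and 6 cyclophosphamide rats. Each label names a rat by number, and each array was taken as a different animal, so p-values measure the spread between these samples. Cyclophosphamide arrays 16 2011 and 16 2012 share a rat number apart from the year, and the labels do not say whether an equal number names the same rat in both cell types.

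A level here is a spot's processed signal on a log2 scale after the 75th percentile of its array was subtracted, so 0 is the brightness that 75% of probes stay below. Levels of different probes are not set against each other, since probes differ in how they hybridise. That percentile ran from 1068 to 2417 signal units. Between 65.3% and 76.4% of probes cleared the scanner software's test for standing well above background, and saturation was absent (0 spots). The number of arrays sets the precision here. The labelled cell types were checked with marker genes in saline rats. All 10 round spermatid markers tested were higher in round spermatids and 8 of 9 pachytene markers were lower there, the exception being Ccna1, which was higher by 1.33 (log2). The mean level of the round spermatid markers nevertheless ran from 1.38 to 2.82 over the pachytene arrays, against 4.36 to 5.04 over the spermatid arrays. The preparations also differed in somatic markers. All 7 macrophage and leukocyte markers tested were higher in the spermatid fractions (median difference 2.70), as were 3 of 3 peritubular myoid markers, while 5 of 5 Leydig and 5 of 7 Sertoli markers were lower. The part of these other cells in the differences below was not tested, and in such samples fewer cells of a type and less RNA per cell cannot be told apart.

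Between the cell types the 7 genes did not move as a block. In saline rats Dntt, Dclre1c and Xrcc6 were higher in round spermatids than in pachytene spermatocytes, Nhej1, Xrcc5 and Lig4 were lower, and Xrcc4 did not pass the test. The Lig4 call in saline rats was lost when the array slide was taken as a block (-0.55, limma adjusted p = 0.0720). The 2 Ku subunits therefore passed in opposite directions, and within the ligase complex Nhej1 was lower, as was Lig4 without the slide block, while Xrcc4 did not pass. A gene was called at an adjusted p of 0.05 (limma, Benjamini-Hochberg over all genes tested). Of all 19401 genes tested in saline rats, 75.3% were called, 38.3% higher and 37% lower, so the count of 6 called members of 7, 3 higher and 3 lower, was near the background. Dntt, Nhej1 and Xrcc5 (3 of 7) were also past 2-fold, which 46% of all genes were. Dntt entered the test through its spermatid level, and its size rests on pachytene signals near background, as given below. The members' median difference was 0.23, the value of Xrcc4, which did not pass, against 0.012 over all genes tested. Cyclophosphamide rats gave a second comparison that shares no array with the first. There 79.2% of 19332 genes were called, 38.8% higher and 40.4% lower, and 51.4% were also past 2-fold. The same 6 members were called in the same directions, and the same 3 were past 2-fold, with the same limit for Dntt. The members' median there was -0.18, again the value of Xrcc4, against -0.022 over all genes tested.

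**Figure D1:**
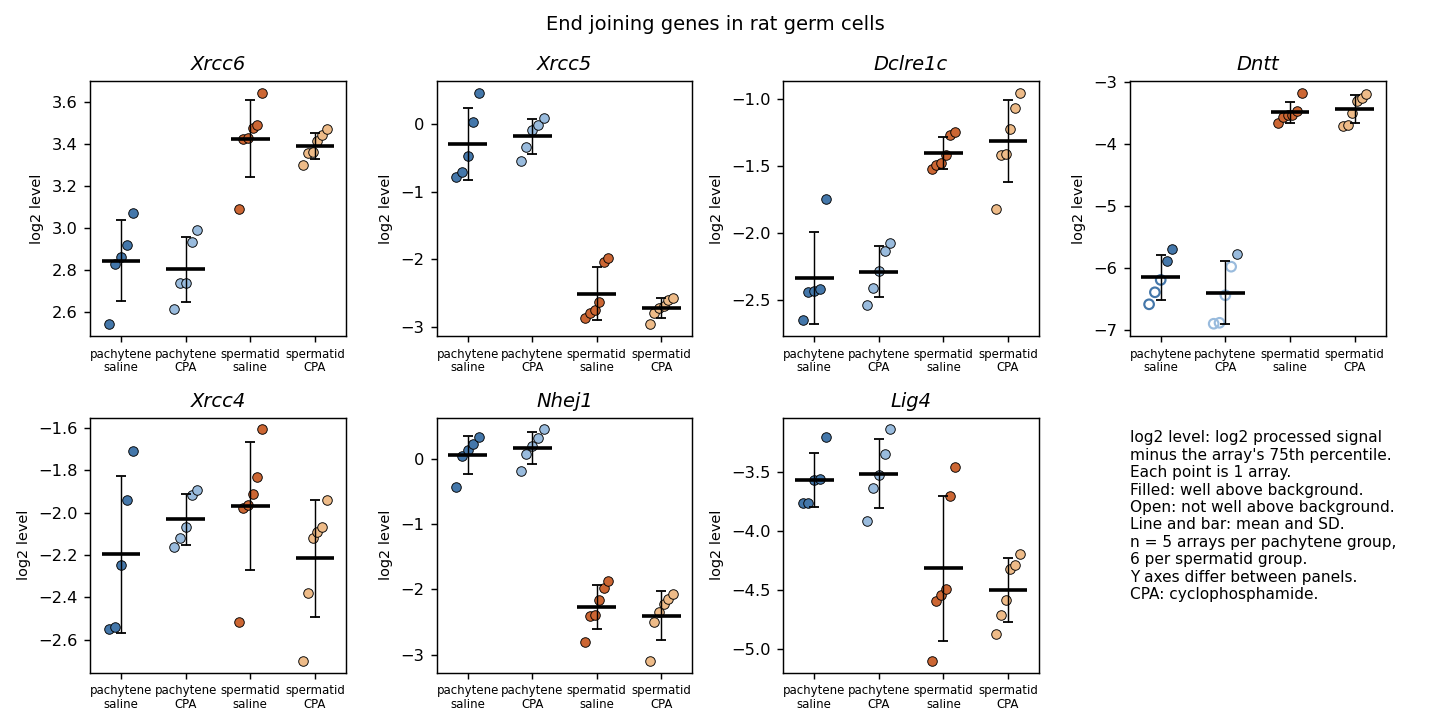
Level of each gene (log2, relative to the 75th percentile of each array) in the 4 groups. Each point is 1 array, filled where the probe was well above background, and lines and bars are means and SDs (n = 5 or 6). Dntt lies between -6.90 and -5.69 on pachytene arrays and between -3.71 and -3.17 on spermatid arrays, and saline and cyclophosphamide points overlap in every panel.

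Xrcc6 (probe A_64_P038132) and Xrcc5 (probe A_64_P123879) encode the 2 subunits of Ku, a ring that slides onto a DNA end and works as a heterodimer. The stretches of DNA upstream of both genes are shown because their transcripts differed in opposite directions. They are from RefSeq on assembly GRCr8, 5′ to 3′ on the gene's strand, and stop at the gene's outermost annotated end. That of Xrcc5, of 250 bases, is chr9:81404257-81404506 on the plus strand and that of Xrcc6, of 92 bases, is chr7:115422934-115423025 on the plus strand. Capitals mark GGGCGG (the GC box) and TGACG (the core of the CRE, the site of CREB and CREM) or their reverse complements.
Xrcc5: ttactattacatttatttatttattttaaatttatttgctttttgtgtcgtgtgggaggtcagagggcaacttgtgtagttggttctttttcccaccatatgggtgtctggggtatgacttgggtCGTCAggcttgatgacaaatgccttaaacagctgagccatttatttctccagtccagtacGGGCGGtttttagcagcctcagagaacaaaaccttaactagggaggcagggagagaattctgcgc
Xrcc6: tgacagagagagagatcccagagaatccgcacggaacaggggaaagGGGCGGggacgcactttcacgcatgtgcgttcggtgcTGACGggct
The full window runs from 250 bases before to 50 after the start site, 300 bases in all. Xrcc6 held 3 GC boxes and 3 CRE cores in it, and Xrcc5 held 1 of each. Lig4 and Nhej1, which were lower in round spermatids, held 3 and 1 GC boxes and 2 and 1 CRE cores. Dclre1c and Dntt, which were higher there, held 1 and 0 GC boxes and 0 and 1 CRE cores. Xrcc4, which did not pass, held 2 GC boxes and 0 CRE cores. A link between these counts and the differences was not tested. At least 1 GC box occurs in 33.1% and at least 1 CRE core in 21.2% of 33469 rat promoter windows of this length. The share of G and C was 62.7% for Xrcc6 and 46.3% for Xrcc5, against a median of 51.7% over all windows. These matches describe the letters only.

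Xrcc6 stood at 2.83, 2.54, 2.86, 2.92 and 3.07 in pachytene spermatocytes of saline rats 13, 16, 25, 26 and 28. In round spermatids of 6 saline rats it ran from 3.09 to 3.64 with a median of 3.45. Every spermatid array lay above every pachytene array, with a gap of 0.017 between the highest pachytene value, rat 28, and the lowest spermatid value, rat 17. The difference was 0.58 ± 0.11 (log2, limma estimate ± SE, adjusted p = 4.22e-05), or 1.50-fold (95% interval 1.28 to 1.74). Of all genes tested, 64.4% differed by at least as much.

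Xrcc5 went the other way. It stood at -0.71, 0.46, 0.033, -0.79 and -0.47 in pachytene spermatocytes of the same 5 saline rats, and from -2.86 to -1.98, median -2.69, in saline round spermatids. The groups were far apart, and rats 16 and 25 were the highest of the pachytene arrays. Xrcc5 was 4.64-fold higher in pachytene spermatocytes, a log2 difference of -2.21 ± 0.21 (limma, adjusted p = 1.93e-09), and 14.4% of all genes differed by at least as much.

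Because both Ku probes are on every array, the gap between them can be followed within an array, as a description chosen after the values were seen. The Xrcc6 value minus the Xrcc5 value was 3.14 ± 0.68 (log2, SD, n = 5) on saline pachytene arrays and 5.93 ± 0.47 (SD, n = 6) on saline spermatid arrays. With cyclophosphamide the gaps were 2.98 ± 0.41 (n = 5) and 6.11 ± 0.12 (n = 6). The gap widened by 2.79 in saline and 3.13 in cyclophosphamide rats. Its absolute size carries the unknown difference between the probes, and only its change between groups can be read.

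In cyclophosphamide rats Xrcc6 stood at 2.99, 2.74, 2.74, 2.93 and 2.61 in pachytene spermatocytes of rats 7, 15, 16 2011, 16 2012 and 29 and between 3.30 and 3.47, median 3.39, in round spermatids. Xrcc5 stood at -0.54, -0.014, -0.082, -0.34 and 0.090 on these pachytene arrays and between -2.96 and -2.57, median -2.70, on the spermatid arrays. Neither gene's cell types overlapped. The differences were 0.59 ± 0.11 for Xrcc6 (adjusted p = 3.23e-05) and -2.54 ± 0.21 for Xrcc5 (adjusted p = 1.36e-10, limma for both).

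Of the 4 slides, slides 1 and 2 carried all 4 groups, and slides 3 and 4 carried pachytene arrays only. With the slide as a block the saline differences were 0.63 for Xrcc6 and -2.28 for Xrcc5, and both kept their calls. Each of these slides held 1 saline and 1 cyclophosphamide pachytene array and 3 spermatid arrays of each treatment. A test within a slide therefore takes its spread from the spermatid arrays and assumes that the lone pachytene array varies like them. Within slide 1 alone, Xrcc6 was 0.50 higher in saline spermatids, which did not pass (limma adjusted p = 0.0829, 1 pachytene against 3 spermatid arrays), and within slide 2 it was 0.66 higher (adjusted p = 0.0191). Xrcc5 differed by -1.76 and -2.58 within slides 1 and 2. The size for Xrcc6 depended on the scaling: quantile normalization gave 0.31 in saline and 0.38 in cyclophosphamide rats, still called.

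Dclre1c (probe A_42_P783205) encodes Artemis, the nuclease that opens hairpins and trims overhangs. In saline pachytene spermatocytes it stood at -2.65, -1.75, -2.44, -2.42 and -2.43 in rats 13, 16, 25, 26 and 28. Rat 16 was above the other 4, of which the highest was rat 26. The mean level of the round spermatid markers was also highest, at 2.82, on that array among the saline pachytene arrays. Rat 13, with the next highest mean at 2.69, had the lowest Dclre1c value. Among the cyclophosphamide pachytene arrays rat 15 had the highest mean, at 2.44, and the lowest Dclre1c value. The part of spermatid RNA in these values was not tested. Saline round spermatids ran from -1.52 to -1.25 with a median of -1.44, above every pachytene array including that of rat 16. Dclre1c was 1.91-fold higher in round spermatids (95% interval 1.53 to 2.39), a log2 difference of 0.94 ± 0.15 (limma, adjusted p = 1.01e-05), which 48.4% of genes matched or exceeded. In cyclophosphamide rats the pachytene values were -2.28, -2.54, -2.08, -2.14 and -2.41 for rats 7, 15, 16 2011, 16 2012 and 29, and the spermatid values ran from -1.82 to -0.95 with a median of -1.31. These groups were also apart, by 0.98 ± 0.15 (adjusted p = 4.95e-06). With the slide as a block the differences were 1.15 in both treatments, and within slides 1 and 2 they lay between 0.93 and 1.39, against 1 pachytene array each.

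Dntt (probe A_64_P047983) was the one member not above background on every array. Terminal transferase is known from lymphocyte precursors, where it adds bases to the broken ends of receptor genes. The 250 bases before its start site, chr1:249805552-249805801 on the plus strand of GRCr8 (RefSeq), are shown because no other member was above background mainly in round spermatids.
Dntt: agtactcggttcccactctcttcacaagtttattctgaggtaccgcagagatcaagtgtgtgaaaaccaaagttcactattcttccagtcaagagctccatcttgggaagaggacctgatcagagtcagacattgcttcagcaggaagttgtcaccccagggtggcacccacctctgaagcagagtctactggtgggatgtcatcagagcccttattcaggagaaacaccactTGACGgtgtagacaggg
The capitals mark a single CRE core, TGACG, whose first base lies 17 bases before the start site (position -17). Besides this core and the GC box, both strands were searched for the ETS site CCGGAAG, which 8.75% of windows hold, for the box CCAAT, which 37.5% hold, and for the TATA box TATAAA, which 14.2% hold. No one of these motifs contains another. Dntt held the CRE core and none of the other 4, and TATAAA was in none of the 7 members' windows. The CRE core was also in the windows of Xrcc6 and of Xrcc5, Nhej1 and Lig4, which were lower in round spermatids. It was absent from those of Dclre1c and Xrcc4.

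In saline pachytene spermatocytes Dntt stood at -5.69, -5.89, -6.20, -6.59 and -6.39 in rats 13, 16, 25, 26 and 28, and the probe was well above background in 2 of these 5. In saline round spermatids it ran from -3.67 to -3.17 with a median of -3.53, well above background in all 6. No values overlapped, and the lowest spermatid array was 2.03 above the highest pachytene array. The fitted log2 difference was 2.66 ± 0.19 (limma, adjusted p = 3.95e-11). Dntt entered the test through its spermatid level, and since most pachytene values were not above background, no exact fold is given. In cyclophosphamide rats it stood at -5.98, -5.78, -6.44, -6.89 and -6.90 in pachytene cells of rats 7, 15, 16 2011, 16 2012 and 29, above background in 1 of 5, and from -3.71 to -3.19, median -3.41, in round spermatids. The fitted difference there was 2.95 ± 0.19 (adjusted p = 3.87e-12), with the same limit. The pachytene arrays above background were those of saline rats 13 and 16 and cyclophosphamide rat 15. Their mean levels of the round spermatid markers were 2.69, 2.82 and 2.44, against 1.38 to 2.23 on the other pachytene arrays. The part of spermatid RNA in these Dntt values was not tested.

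The size of the Dntt difference rests on pachytene signals near background. Normexp background correction with an offset of 50, which pulls dim signals together, gave 1.07 in saline and 1.02 in cyclophosphamide rats, both still called. It then lay below Nhej1 (-2.06 and -2.26) and Xrcc5 (-1.96 and -2.24) in size, whereas it was the largest of the 7 without that correction. With the slide as a block the saline difference was 2.50 (called), and within slides 1 and 2, with 1 pachytene array each, it was 2.13 and 2.78. Within slide 1 too Nhej1 differed by more, at -2.34.

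Lymphocyte markers were set beside Dntt, since lymphoid precursors express it. Of 12 such markers on the array, 5 could be tested in saline rats. In round spermatids 2 were higher, Cd3d by 0.65 and Cd4 by 0.50 (log2), 2 were lower, among them Cd8a, which was above background on no spermatid array, and Lck, at -0.16, did not pass. The mean level of the 12 ran from -6.33 to -5.91 on pachytene arrays and from -6.40 to -5.93 on spermatid arrays. Rag1 and Rag2, the recombinase that cuts receptor genes ahead of Dntt, and Cd3e, Cd2 and Il7r were not well above background on any of 22 arrays. The macrophage and leukocyte markers moved with Dntt. Their mean level ran from -4.54 to -3.35 on pachytene and from -1.93 to -0.38 on spermatid arrays, with the pan-leukocyte gene Ptprc above background on no pachytene array and on 4 of 6 arrays in each spermatid group. Their part in the Dntt difference was not tested.

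Xrcc4 (probe A_44_P163685) and Nhej1 (probe A_44_P760697) encode related scaffolds that form filaments bridging the ends. Xrcc4 stood at -1.94, -2.54, -2.25, -1.71 and -2.55 in saline pachytene spermatocytes of rats 13, 16, 25, 26 and 28 and ran from -2.52 to -1.61, median -1.94, in saline round spermatids. The groups overlapped almost fully. The difference was 0.23 ± 0.17 (limma, adjusted p = 0.228), with a 95% interval from 0.918-fold to 1.49-fold. In cyclophosphamide rats it was -0.18 ± 0.17 (adjusted p = 0.322), from pachytene values of -1.92, -2.12, -1.90, -2.07 and -2.16 and spermatid values from -2.70 to -1.94 with a median of -2.11.

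Nhej1 was clearly separated. It stood at 0.32, -0.44, 0.13, 0.22 and 0.044 in saline pachytene spermatocytes of rats 13, 16, 25, 26 and 28, and from -2.80 to -1.88, median -2.28, in saline round spermatids. It was 5.02-fold higher in pachytene spermatocytes, with a log2 difference of -2.33 ± 0.19 (limma, adjusted p = 1.81e-10), which 11.8% of genes matched or exceeded. In cyclophosphamide rats it stood at 0.076, 0.31, -0.20, 0.45 and 0.20 in pachytene cells and from -3.10 to -2.08, median -2.29, in round spermatids, a difference of -2.57 ± 0.19 (adjusted p = 2.22e-11). With the slide as a block the saline difference was -2.44 (called), and within slides 1 and 2, against 1 pachytene array each, it was -2.34 and -2.66. On the same arrays, the Xrcc4 value minus the Nhej1 value was -2.25 ± 0.25 (log2, SD, n = 5) in saline pachytene cells and 0.30 ± 0.48 (n = 6) in saline spermatids, a change of 2.56. In cyclophosphamide rats the values were -2.20 ± 0.34 (n = 5) and 0.19 ± 0.54 (n = 6), a change of 2.39. This pair too was chosen after its values were seen.

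Lig4 (probe A_44_P309325), the ligase that seals the ends, was dim but above background on every array. It stood at -3.56, -3.57, -3.76, -3.20 and -3.76 in saline pachytene spermatocytes of rats 13, 16, 25, 26 and 28 and ran from -5.10 to -3.46, median -4.52, in saline round spermatids. Of the 6 spermatid arrays, 4 lay below all pachytene arrays, while rats 17 and 29, at -3.46 and -3.70, fell within the pachytene range. The difference was -0.74 ± 0.23 (limma, adjusted p = 0.00526), or 1.68-fold higher in pachytene spermatocytes. In cyclophosphamide rats the pachytene values were -3.14, -3.64, -3.53, -3.35 and -3.92, the spermatid values ran from -4.88 to -4.20 with a median of -4.46, and the groups did not overlap (-0.98 ± 0.23, adjusted p = 0.000431). The saline call was lost with the slide as a block, as given above, and, under the assumption named above, within slides 1 and 2 (-0.61, adjusted p = 0.271, and -0.70, adjusted p = 0.273). In cyclophosphamide rats the call held with the block (-0.82, adjusted p = 0.00964) and was lost within slide 1 (-0.81, adjusted p = 0.144) and slide 2 (-0.64, adjusted p = 0.309). With normexp correction the differences were -0.43 in saline and -0.65 in cyclophosphamide rats, both called.

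**Figure D2:**
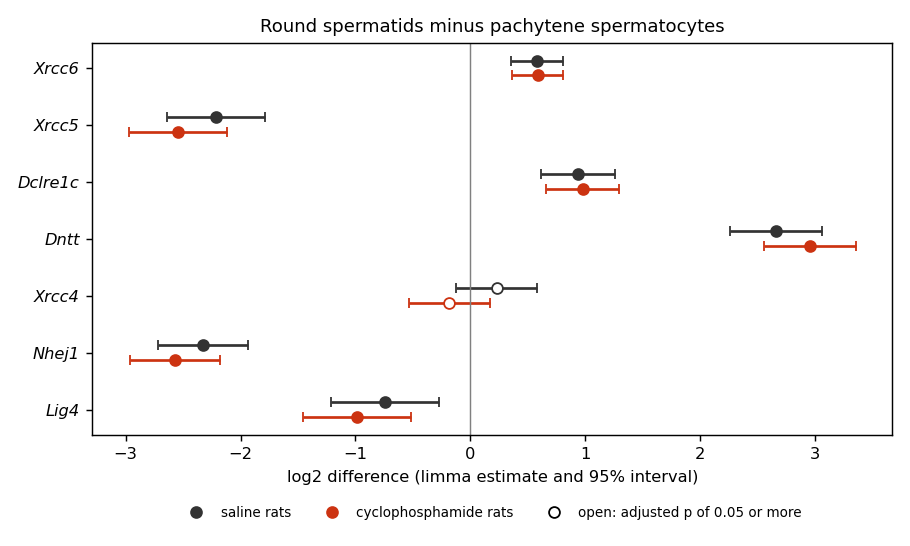
Difference of each gene between round spermatids and pachytene spermatocytes (log2, limma estimate with 95% interval) in saline and cyclophosphamide rats. Filled points are called. Dntt lies at 2.66 and 2.95, Nhej1 at -2.33 and -2.57 and Xrcc5 at -2.21 and -2.54, while both Xrcc4 points are open.

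In saline rats the values of the cell types did not overlap for 5 of the 7 genes, all but Xrcc4 and Lig4, and for 57.1% of all genes tested. In cyclophosphamide rats they did not overlap for 6 of the 7, all but Xrcc4, and for 67.1% of all genes. When the 4 groups were placed in order of mean level, the saline and cyclophosphamide groups of a cell type overlapped for every gene. By mean level both spermatid groups came above both pachytene groups for Dntt, Dclre1c and Xrcc6, and below them for Xrcc5, Nhej1 and Lig4. For Lig4 the saline spermatid values overlapped those of pachytene cells.

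A list of 35 related genes, 27 of them on the array, also covered break signalling, alternative end joining and resection. These genes too went in both directions. In saline rats 24 could be tested, and 7 were higher in round spermatids, 12 were lower and 5 did not pass, with a median of -0.35. In cyclophosphamide rats 8 of 25 were higher and 12 lower, with a median of -0.38. Of all genes tested in saline rats, 38.3% were higher and 37% lower, with a median of 0.012. In cyclophosphamide rats these shares were 38.8% and 40.4%, with a median of -0.022. The pathway counts, and those of each role group below, were not tested against these shares. Among 8 end-processing and accessory factors in saline rats, 3 were higher and 4 lower. Aptx, which removes AMP from failed ligations, was higher by 1.91 ± 0.15. Tdp2, which frees ends from trapped topoisomerase II, was lower at -1.53 ± 0.13, and so was the Ku-binding factor Aplf at -1.32 ± 0.23, above background on 2 of 6 saline spermatid arrays.

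Of 8 genes of break signalling and the 53BP1-shieldin branch, which favours end joining over resection, 2 were higher and 3 lower. Paxip1 was higher by 1.54 ± 0.11 and Mad2l2, a shieldin subunit, by 0.98 ± 0.19. H2ax, the histone phosphorylated around breaks, was lower at -2.36 ± 0.15, as was the ubiquitin ligase Rnf8 at -2.13 ± 0.10. Of 8 genes of alternative end joining and resection, 2 were higher and 5 lower. Xrcc1, a single-strand repair scaffold, was higher by 1.07 ± 0.15 and the nuclease Mre11 by 1.06 ± 0.12. Rad50, the partner of Mre11, was lower at -2.20 ± 0.14, and so was Rbbp8 (CtIP), which starts resection, at -1.81 ± 0.10. Mre11 and Rad50, like the Ku subunits, are partners in 1 complex that passed in opposite directions. This pair too was picked after its values were seen, and how often pairs of other genes do so was not tested.

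**Figure D3:**
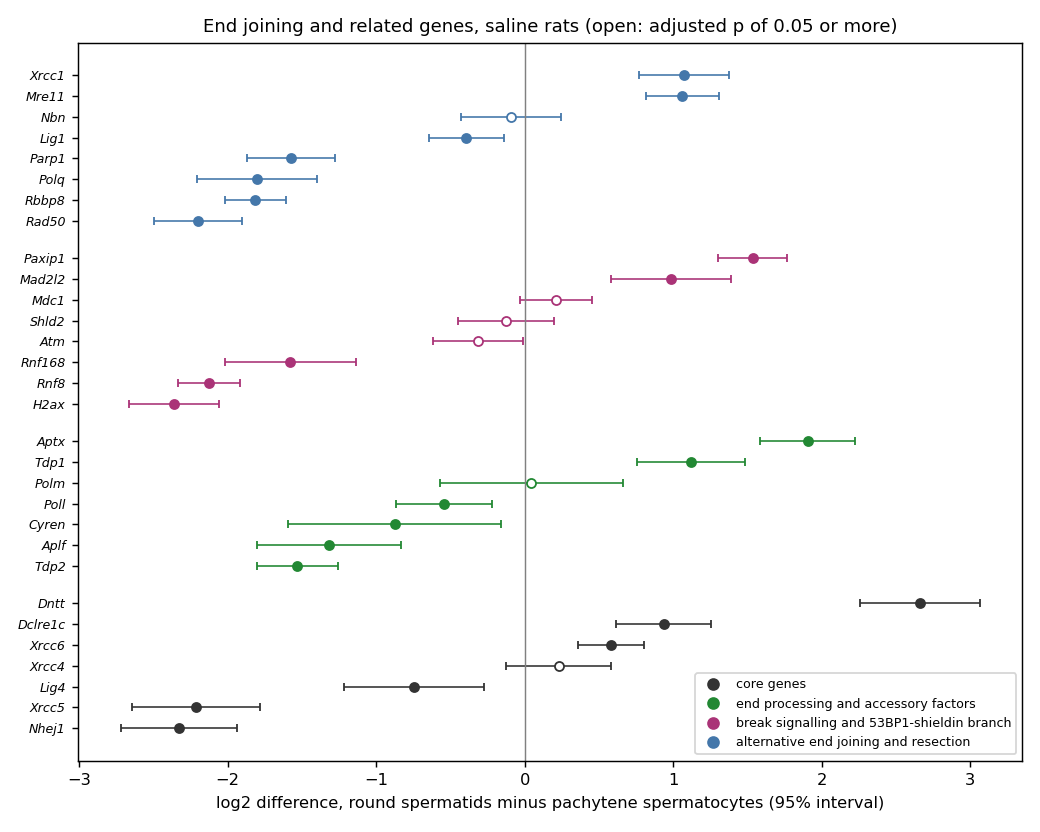
Difference between round spermatids and pachytene spermatocytes of saline rats (log2, limma estimate with 95% interval) for the core genes and 23 of the related genes, grouped by role. Filled points are called. Each group holds genes on both sides of 0, from Dntt at 2.66 to H2ax at -2.36.

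The gene most like each member was taken by Pearson's r over the 22 arrays among 11218 named genes. These arrays share 4 group means, which alone can give a high r to genes that differ widely between the cell types. For this reason r is also given after the group means were removed, as a description with no test. For Dntt the 5 closest were Larp1bl (0.991, and 0.796 without group means), Cstl1 (0.991 and 0.791), Sufu (0.991 and 0.785), Dctpp1 (0.990 and 0.801) and Cst8 (0.990 and 0.801), with 2446 genes above 0.9. Most pachytene values of Dntt behind these r were not above background. Xrcc5 was closest to Sephs1 (0.998 and 0.970) and Nhej1 to Tmem126b (0.994 and 0.894). Xrcc6 was closest to Loxhd1 (0.961 and 0.838) and Dclre1c to Angptl2 (0.958 and 0.801). Lig4 was closest to Engase (0.866 and 0.651) and Xrcc4 to Skp1 (0.795 and 0.781), and neither had a gene above 0.9.

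The series' own question is what chronic cyclophosphamide does to these transcripts. None of the 7 genes was called in either cell type, and 0% of all genes were called in any of the 3 treatment comparisons (limma; 18450 genes tested in pachytene spermatocytes, 18843 in round spermatids and 19643 for the difference between these effects). At an unadjusted p under 0.05 there were 1343, 625 and 1502 genes, none of them a member. Saline and cyclophosphamide values overlapped for every member in both cell types.

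In pachytene spermatocytes 6 members could be tested, with differences from -0.042 (Xrcc6) to 0.16 (Xrcc4) and the smallest unadjusted p at 0.360 (adjusted p = 0.848). Their 95% intervals lay within -0.43 and 0.56, so a change of more than 1.48-fold in either direction lay outside the interval of each of the 6. Dntt was too dim to test there, at -6.15 ± 0.36 (SD, n = 5) in saline and -6.40 ± 0.51 (n = 5) in cyclophosphamide rats, values that overlapped. Xrcc5 stood at -0.30 ± 0.53 in saline and -0.18 ± 0.26 in cyclophosphamide rats, and Nhej1 at 0.056 ± 0.30 and 0.17 ± 0.25. Round spermatid markers had a median difference of -0.52 between these groups, with 0 of 10 called in a comparison that called no gene. Each marker was lower with cyclophosphamide, from -0.66 (Spem1) to -0.24 (Spaca1), and the smallest unadjusted p was 0.0121 (Acrv1, limma). The part of these markers' shift in the members' values was not tested.

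In round spermatids all 7 could be tested, with differences from -0.25 (Xrcc4) to 0.091 (Dclre1c) and the smallest unadjusted p at 0.138 (adjusted p = 0.99996). The intervals lay within -0.63 and 0.43, or 1.55-fold. Dntt stood at -3.49 ± 0.17 (SD, n = 6) in saline and -3.44 ± 0.23 (n = 6) in cyclophosphamide rats, a difference of 0.047 ± 0.18. Xrcc4 stood at -1.97 ± 0.30 and -2.22 ± 0.28, and Lig4 at -4.31 ± 0.61 and -4.50 ± 0.27, with rats 17 and 29, named above, the highest of the saline arrays. The difference between the effects in the cell types ran from -0.41 for Xrcc4 to 0.29 for Dntt, with the smallest unadjusted p at 0.0992 (adjusted p = 0.654) and intervals within -0.94 and 0.86, or 1.92-fold. The cell types were thus not shown to differ in their response.

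**Figure D4:**
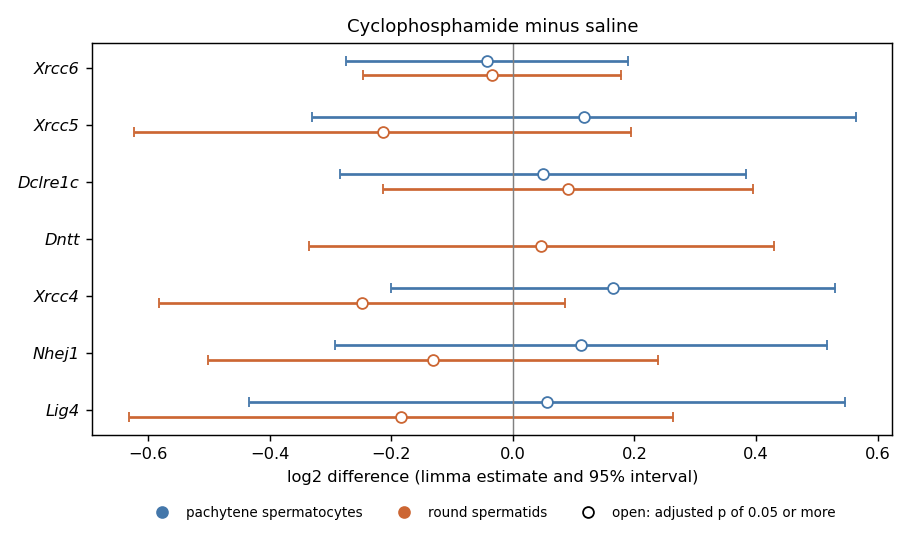
Difference between cyclophosphamide and saline rats for each gene (log2, limma estimate with 95% interval) in pachytene spermatocytes and round spermatids. All points are open, lie between -0.25 and 0.16 and have intervals that span 0. Dntt has no pachytene point because it was not tested there.

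Of the related pathway genes, 24 could be tested in pachytene spermatocytes, 24 in round spermatids and 25 for the difference between the effects, and none was called. For the difference they ran from -0.56 to 0.47, and 4 of the 25 had an unadjusted p under 0.05 (smallest adjusted p = 0.633, limma). Of all genes tested, 1502 of 19643 were under that unadjusted p for the difference, 1343 of 18450 in pachytene spermatocytes and 625 of 18843 in round spermatids. In pachytene spermatocytes they ran from -0.999 to 0.24, and the lowest was Cyren, a small Ku-binding regulator, at -0.999 ± 0.36 (unadjusted p = 0.0108, adjusted p = 0.683). In round spermatids they ran from -0.53 to 0.24, and Parp1, the sensor of strand breaks, was the single gene under an unadjusted p of 0.05, at -0.33 ± 0.14 (limma, unadjusted p = 0.0227, adjusted p = 0.99996). Cyren and Parp1 were named after their values were seen.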

How the data were processed

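RNA of 22 rat germ cell samples was measured on one-colour Agilent arrays. The deposited scanner files give an intensity per spot, the processed signal, which Feature Extraction had background-corrected, per the file headers (version 10.7.3.1), while the submitters' processing notes name version 11.5.1.1. The authors' deposited value table holds log2 values centred on 0, with column medians from -0.0098 to 0.0070. Compared with the scanner files it matched quantile normalization within a cell type and centring of each probe, so its level and exact steps are unknown, and it served as an alternative for treatment only.

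Control and outlier spots were left out, log2 signals of a probe's spots were averaged, and each array's 75th percentile was subtracted. The highest probe by mean stood for a gene. Accessions named 17998 of 30367 probes through RefSeq's GRCr8 gene table. Testing required a gene to stand well above background (more than 0.5 of its spots) in a group compared, with at most 1 array below. Tests used limma 3.58.1 in R 4.3.3 (lmFit, eBayes) on 4 group means of all arrays, with statmod 1.5.0 for blocks, and were tested on simulated data. Promoters and drawings used Python 3.11.15, numpy 2.4.6, pandas 2.3.3 and matplotlib 3.10.9. Matches to the ETS site and the CCAAT box in the promoters of members other than Dntt were also looked at and are not given. Alternatives covered scaling, normexp correction, filters, probes, slides, replicate blocks and each array left out. Normexp used the median spot signal (the files used here hold no mean signal) and an offset of 50. The 7 genes, the lists of pathway genes and markers, the rule that all members are named with the 2 largest pathway differences each way and the closest gene by r, and the tests were chosen with earlier results of these data known. Some items that this rule covers are not reported here.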

Additional observations from a re-analysis of the deposited data

Results flagged for a closer look

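Of 28 sets of values (7 genes in 4 groups), 1 held an array far from the rest by Dixon's criterion, and chance alone gives about 1 in 20. It was Dclre1c in pachytene spermatocytes of saline rat 16, at -1.75 against -2.65 to -2.42 in the other 4 saline rats. Without that rat the difference between the cell types of saline rats was 1.08 and still called (limma adjusted p = 4.11e-07), and it ran from 0.86 to 1.08 with each array left out in turn.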

How the results depend on the processing

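Over 23 alternatives, the saline cell type comparison called 3 members higher in 22 and 2 in 1, and 3 lower in 20 and 2 in 3. In cyclophosphamide rats it called 3 higher in all 23, and 3 lower in 21 and 2 in 2. The calls lost were Lig4 and Xrcc6 with the slide blocked or within a slide, as given above. Within single slides, where a pachytene group has 1 or 2 arrays and a lone array is assumed to vary like the others, the treatment counts over all genes were 7, 34, 2 and 18 in pachytene spermatocytes (slides 1 to 4), 1 and 4 in round spermatids (slides 1 and 2), and 21 for the difference between effects (slide 2), with no member among them, and these counts say nothing of stability. Leaving out each array gave 0 to 1 genes in pachytene spermatocytes (1 without cyclophosphamide rat 29) and 0 to 1 for the difference (1 without pachytene cyclophosphamide rat 16 2011 or saline rat 25, or spermatid cyclophosphamide rat 26 or saline rats 15 or 29). 

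Small differences that were called in neither fit changed sign. Within slide 1 the pachytene treatment differences were -0.0092 for Nhej1, -0.18 for Xrcc4 and -0.079 for Lig4, within slide 2 -0.16 for Lig4, within slide 3 -0.10 for Nhej1, and within slide 4 -0.18 for Xrcc5, 0.20 for Xrcc6 and -0.054 for Dclre1c. In round spermatids they were 0.060 for Xrcc6 (slide 1), and -0.12 for Dntt, 0.086 for Nhej1 and -0.070 for Dclre1c (slide 2). The differences between effects were -0.049 for Dntt with normexp, and 0.015 for Nhej1, 0.069 for Lig4 and -0.10 for Dclre1c within slide 2, where the cyclophosphamide cell type difference of Xrcc4 was 0.033. The cause was not tested.

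With arrays left out in turn, signs changed for pachytene Nhej1 (-0.012 to 0.20), Xrcc5 (-0.0065 to 0.31), Xrcc6 (-0.12 to 0.015), Lig4 (-0.038 to 0.16) and Dclre1c (-0.029 to 0.20), for spermatid Dntt (-0.0035 to 0.11), Nhej1 (-0.24 to 0.0080) and Xrcc6 (-0.10 to 0.0093), and for the difference of Xrcc6 (-0.060 to 0.083) and Dclre1c (-0.11 to 0.14).

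A replicate block by rat number gave a correlation of 0.035 and called 14630 genes between cell types in saline and 15323 in cyclophosphamide rats, with every member's call unchanged. Over the treatments in round spermatids the replicate block called 0 genes. Correlations of same-numbered arrays ran from -0.22 to 0.38, so the number was not taken as a pairing, and whether equal numbers name the same rat is not settled by them.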
